A study of Homo sapiens with 6 samples.

Results

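The EGFR family transcripts described here are those of the 4 receptors EGFR, ERBB2, ERBB3 and ERBB4 and of the 5 ligands AREG, EREG, HBEGF, TGFA and NRG1. Members were found by their symbol in the count table. All 9 were among its 26485 genes, and 7 of them, against 13562 of all genes, had enough reads to be tested. The study depleted CIP2A, an inhibitor of the phosphatase PP2A, in HCC38 cells and measured poly(A) RNA by stranded RNA sequencing. HCC38 is an established human line from a breast ductal carcinoma, labelled triple negative and basal-like. The 3 CIP2A siRNA libraries were each transfected with 1 different CIP2A siRNA, siCIP2A#1, siCIP2A#2 or siCIP2A#3. The 3 controls were 2 libraries with the non-targeting siRNAs SCR#2 and SCR#3 and 1 mock library. One label gives the mock transfection reagent alone, while the design text calls it not transfected. All libraries came from the same parental line, and the reagent named for the transfections was Oligofectamine. There was 1 library per siRNA, and no label says that libraries came from separate cultures, so the p-values measure only the spread between these libraries.

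The receptors of this family are tyrosine kinases that pair with each other when a ligand binds. EGFR binds AREG, EREG, HBEGF and TGFA, ERBB3 and ERBB4 bind NRG1, ERBB2 has no known ligand of its own, and ERBB3 has little kinase activity and signals through its partners. The ligands are released from the membrane by ADAM proteases, and active receptors signal through RAS, MAP kinase, PI3 kinase and STAT proteins. In breast cancer the family is best known for the amplified ERBB2 of HER2-positive tumours, and EGFR protein is often found in basal-like tumours.

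The libraries held 15547526 to 18161451 counts with the CIP2A siRNAs and 13995187 to 17116379 counts in the controls, so that a count of 3, the floor used here, equals 0.165 to 0.214 counts-per-million (CPM). CIP2A itself stood at 16.4, 45.8 and 19.3 CPM with siCIP2A#1, siCIP2A#2 and siCIP2A#3, against 98.9, 99.8 and 103 CPM in the mock, SCR#2 and SCR#3. It fell with each siRNA, least with siCIP2A#2. The log2 differences were -2.62, -1.13 and -2.38 (edgeR with Benjamini-Hochberg adjustment, adjusted p = 0.000241, 0.0165 and 0.000468). Of the basal markers, KRT6A and KRT14 had no count in any library, and KRT5, KRT17 and TP63 had at most 9 counts, so the basal-like label was not borne out by these 5 transcripts. Their summed level was 0.295 to 0.433 CPM with the CIP2A siRNAs and 0.218 to 0.585 CPM in the controls. ESR1 and PGR, the hormone receptor genes, had at most 6 counts. The luminal keratins KRT8 and KRT18 had 4278 to 8107 and 6709 to 13087 counts, while the epithelial markers EPCAM, CDH1 and KRT19 had at most 18. All 5 leukocyte markers had under 10 counts in every library, and PTPRC had none. Of 5 endothelial markers only CDH5 had no count in any library, while PECAM1 had 44 to 115 counts, KDR 52 to 116, VWF 7 to 20 and TEK 4 to 12. Their summed level was 7.35 to 14.2 CPM with the CIP2A siRNAs and 7.79 to 11.3 CPM in the controls, and its highest value was that of siCIP2A#1.

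The genes are spread over 6 chromosomes in GRCh38.p14, apart from NRG1. EGFR lies at chr7:55019017-55211628 (plus strand), ERBB2 at chr17:39688094-39728658 (plus) and ERBB3 at chr12:56080108-56103505 (plus). ERBB4 lies at chr2:211375717-212538802 (minus) and TGFA at chr2:70447284-70553826 (minus). HBEGF lies at chr5:140332843-140346603 (minus). EREG, at chr4:74365145-74388749, and AREG, at chr4:74445136-74455005, lie near each other on the plus strand of chromosome 4.

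Promoter windows from RefSeq (GRCh38.p14), 250 bases before to 50 after a start site, were matched for 7 members, all but ERBB3 and NRG1, with 9 windows in all because EGFR and TGFA have 2 each. They are shown for 4 genes to set windows with a TATA box near the start site (AREG and EREG) beside windows rich in GC boxes (EGFR at the gene's start, and HBEGF). This is not a contrast of abundant with scarce transcripts, since the ERBB2 window and the other EGFR window held no GC box. Sequences run 5′ to 3′ on the strand of the gene. In EGFR (chr7:55018767-55019066) and HBEGF (chr5:140346554-140346853), capitals mark the GC box, searched as GGGCGG on both strands. In AREG (chr4:74444886-74445185) and EREG (chr4:74364895-74365194), capitals mark the TATA box, searched as TATAAA, and in AREG also the cyclic AMP response element, searched as TGACGTCA.
EGFR: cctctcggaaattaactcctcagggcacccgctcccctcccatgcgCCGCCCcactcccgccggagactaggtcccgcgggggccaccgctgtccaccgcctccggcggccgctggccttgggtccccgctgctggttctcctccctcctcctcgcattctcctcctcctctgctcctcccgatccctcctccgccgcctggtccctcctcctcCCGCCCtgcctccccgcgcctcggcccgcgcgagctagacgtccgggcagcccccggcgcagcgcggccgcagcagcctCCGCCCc
HBEGF: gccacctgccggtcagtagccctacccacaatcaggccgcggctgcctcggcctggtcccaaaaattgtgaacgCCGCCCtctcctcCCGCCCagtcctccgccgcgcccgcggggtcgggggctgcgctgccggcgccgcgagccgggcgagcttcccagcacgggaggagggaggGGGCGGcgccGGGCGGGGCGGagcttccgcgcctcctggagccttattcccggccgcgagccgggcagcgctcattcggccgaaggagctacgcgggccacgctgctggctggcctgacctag
AREG: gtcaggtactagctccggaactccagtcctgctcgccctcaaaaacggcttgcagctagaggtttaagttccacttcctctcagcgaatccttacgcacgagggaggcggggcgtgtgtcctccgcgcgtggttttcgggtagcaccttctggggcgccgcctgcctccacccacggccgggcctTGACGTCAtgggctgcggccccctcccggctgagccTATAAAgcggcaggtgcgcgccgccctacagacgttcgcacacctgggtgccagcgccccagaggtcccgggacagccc
EREG: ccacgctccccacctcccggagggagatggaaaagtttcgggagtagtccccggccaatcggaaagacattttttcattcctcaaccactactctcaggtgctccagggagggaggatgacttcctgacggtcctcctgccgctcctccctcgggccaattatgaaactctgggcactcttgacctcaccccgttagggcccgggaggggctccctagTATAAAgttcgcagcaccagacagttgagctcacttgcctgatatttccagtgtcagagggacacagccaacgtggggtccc

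Counted from the start site, the TATAAA letters stood at -29 to -24 in AREG and at -32 to -27 in EREG. The response element of AREG stood at -65 to -58. The AREG window also held 1 GC box, which is left in lower case. Likewise unmarked are 2 CCAAT in the EREG window, at -196 to -192 and at -95 to -91. The windows of EGFR and HBEGF at the gene's start held 3 and 5 GC boxes and no TATAAA, and 2 of those of HBEGF share a base. The TGFA window at the gene's start held 4 GC boxes and no TATAAA, and that of ERBB4 held 1 and none. The other EGFR window, at chr7:55109589-55109888, held no GC box but 2 TATAAA, at -146 to -141 and at -36 to -31 from its own start site, and 2 AP-1 motifs (searched as TGANTCA). The ERBB2 window (chr17:39687844-39688143) held no GC box and no TATAAA, but 1 CCAAT and 1 TGANTCA. The other TGFA window held none of these motifs. Over all 35116 RefSeq windows, searched on both strands, 11.5% held TATAAA, 1.85% held TGACGTCA, 45% held GGGCGG, 34.6% held CCAAT and 7.71% held TGANTCA. The GC content of the printed windows was 75.3% in EGFR and 75% in HBEGF, 66.3% in AREG and 57.7% in EREG, and it was 42% in the other EGFR window. These are matches of letters and were not tested for binding.

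Per length, 4 members were far more abundant than the other 5. On the transcripts-per-million scale (TPM, counts divided by the summed exon length and set to a common total), TGFA led with 43.8 ± 6.50 with the CIP2A siRNAs and 41.1 ± 1.75 in the controls (SD, n = 3 each, here and below). EGFR had 28.4 ± 2.02 TPM with the siRNAs and 29.3 ± 1.44 TPM in the controls. HBEGF had 23.5 ± 7.16 TPM with the siRNAs and 24.9 ± 1.28 TPM in the controls, and ERBB2 28.6 ± 3.57 TPM with the siRNAs and 24.1 ± 2.35 TPM in the controls. Over all 6 libraries the lowest TGFA value, 39.5 TPM, lay above the highest of any other member, 32.7 TPM for ERBB2, while the ranges of EGFR, HBEGF and ERBB2 overlapped. ERBB3 stood at 3.86 ± 1.08 TPM with the siRNAs and 4.09 ± 0.459 TPM in the controls, and its lowest library, at 3.15 TPM, lay above the highest of NRG1, at 2.06 TPM, but not of AREG, at 3.40 TPM. NRG1, at 1.39 ± 0.156 TPM with the siRNAs and 1.82 ± 0.216 TPM in the controls, overlapped with AREG, at 2.12 ± 1.21 TPM with the siRNAs and 1.24 ± 0.748 TPM in the controls. ERBB4 and EREG came last, at 0.141 ± 0.0456 and 0.0330 ± 0.0286 TPM with the siRNAs and 0.243 ± 0.0673 and 0.0556 ± 0.0550 TPM in the controls. In the controls, TGFA was above 72% of the 18197 genes that had a length and at least 1 read in any library, and EREG above 10.5%.

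The order among the abundant members depended on the length used. With the longest transcript as the length, ERBB2 led in the controls at 35.4 TPM, ahead of TGFA at 33.2 TPM and EGFR at 26.2 TPM. With the median transcript length, TGFA led again at 53.6 TPM, and ERBB3, at 13.7 TPM, stood beside HBEGF, at 13.1 TPM. EREG was last under all 3 lengths.

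**Figure D1:**
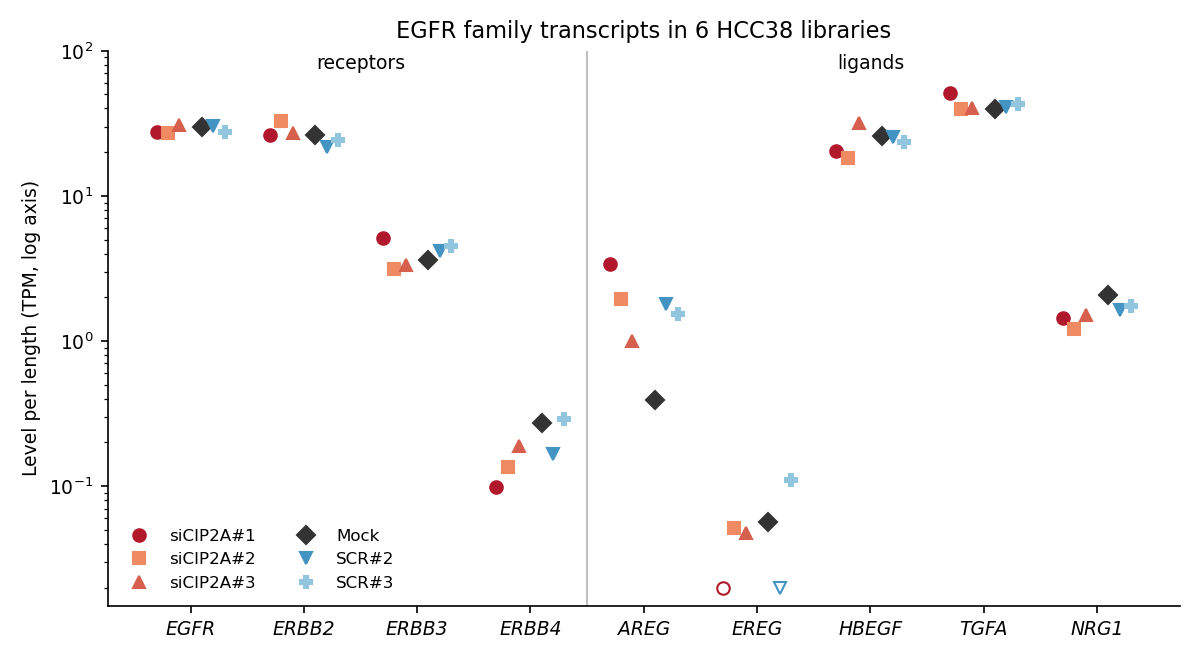
Level of each EGFR family transcript in each of the 6 libraries, in TPM on a log axis, with receptors left and ligands right of the line; open points at the lower edge are libraries with no count. TGFA, EGFR, HBEGF and ERBB2 sat between 18.3 and 51.3 TPM in every library, and EREG at or below 0.110 TPM.

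With the 3 CIP2A siRNAs taken as a group against the 3 controls, 0 of 7 tested members passed, as did 0% of the 13562 tested genes (edgeR, Benjamini-Hochberg adjusted p under 0.05). CIP2A itself did not pass here, with a group log2 difference of -1.90 (SE 0.30, unadjusted p = 5.22e-05, edgeR adjusted p = 0.708), so the lack of calls does not show that the members did not change. At an unadjusted p under 0.05 there were also 0 members, against 2.72% of all genes, and DESeq2 and limma-voom called 0 members. Of the 7, 3 had a difference above 0 and 4 below, with a median log2 difference of -0.06, against -0.0011 over all tested genes. All had an adjusted p of 0.999. An exact permutation test over 3 against 3 libraries cannot give a p below 0.10. Because these are bulk samples, fewer cells of a type and less RNA per cell cannot be told apart.

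EGFR, the receptor for most of the ligands measured here, varied least. It had 73.0, 74.7 and 83.2 CPM (scaled by TMM, here and below) with siCIP2A#1, siCIP2A#2 and siCIP2A#3, against 84.4, 81.7 and 74.6 CPM in the mock, SCR#2 and SCR#3. The groups overlapped. Its group log2 difference was -0.06 (SE 0.10, 95% interval -0.27 to 0.15), and its highest library was 1.16 times its lowest. The difference was -0.12 when siCIP2A#3 was left out and -0.023 when the mock was. Of 2317 genes of a similar level, 27.2% had a smaller standard deviation of log2 CPM over the 6 libraries.

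ERBB2, the preferred partner of the other receptors, had 57.5, 74.4 and 60.0 CPM with the 3 CIP2A siRNAs in the same order, against 61.1, 48.4 and 54.2 CPM in the controls. The library with siCIP2A#2 was the highest of all, and the mock lay above the libraries with siCIP2A#1 and siCIP2A#3. The group log2 difference was 0.23 (SE 0.13, 95% interval -0.04 to 0.50, unadjusted p = 0.0913, edgeR adjusted p = 0.999). It was 0.11 without siCIP2A#2 and 0.32 without the mock. Its spread over libraries exceeded that of 86.9% of 2509 genes of a similar level. Exons of ERBB2 share 571 bases with MIEN1 and 194 bases with PGAP3, both on the opposite strand, and the strand setting of the counting is not given in the sources used here. MIEN1 had a group log2 difference of -0.25 and PGAP3 of 0.20, with an edgeR adjusted p of 0.999 each.

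ERBB3, the kinase-impaired receptor for neuregulins, had 9.80, 6.27 and 6.48 CPM with the CIP2A siRNAs, against 7.28, 8.19 and 8.76 CPM in the controls. The siRNA libraries lay on both sides of the controls, with siCIP2A#1 above all 3 and the other 2 below. The group log2 difference was -0.10 (SE 0.20, 95% interval -0.52 to 0.33). ERBB4, the other neuregulin receptor, was too low to be tested. It had 5, 6 and 9 reads with the siRNAs, against 11, 8 and 12 in the controls, and its groups overlapped in scaled level through siCIP2A#3 and SCR#2. Without a filter on low counts its log2 difference was -0.79 (SE 0.51, edgeR adjusted p = 0.993).

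Among the ligands, TGFA, which binds EGFR, had 54.1, 43.3 and 43.5 CPM with siCIP2A#1, siCIP2A#2 and siCIP2A#3, against 44.0, 43.7 and 46.0 CPM in the mock, SCR#2 and SCR#3. Only siCIP2A#1 stood apart, above every other library. The group log2 difference was 0.08 (SE 0.11, 95% interval -0.17 to 0.32). HBEGF, a heparin-binding ligand of EGFR and ERBB4, had 13.1, 12.1 and 20.6 CPM with the siRNAs, against 17.5, 16.7 and 15.3 CPM in the controls. The first 2 siRNAs lay below all controls and siCIP2A#3 above them, so the group log2 difference was near 0, at -0.10 (SE 0.19, 95% interval -0.51 to 0.30). The spread of HBEGF exceeded that of 89.7% of 1759 genes of a similar level.

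NRG1, a neuregulin that binds ERBB3 and ERBB4, lies at chr8:31639245-32774046 (plus strand). It had 3.46, 3.04 and 3.71 CPM with the siRNAs, against 5.24, 4.03 and 4.28 CPM in the controls. All 3 siRNA libraries lay below all 3 controls. These levels rested on 64, 47 and 63 reads with the siRNAs, against 72, 69 and 63 in the controls. The counts of siCIP2A#3 and SCR#3 were thus equal before scaling. NRG1 was the one tested member whose groups did not overlap, whereas 4.38% of all tested genes were lower without overlap, 3.26% were higher and 7.64% did not overlap in either direction. Its group log2 difference was -0.40 (SE 0.20, 95% interval -0.84 to 0.04, edgeR unadjusted p = 0.0687, adjusted p = 0.999). The exact permutation test gave a two-sided p of 0.10, the smallest possible here, and the other 8 members gave 0.20 to 1.00. After Benjamini-Hochberg adjustment over the 9 members, the permutation p of NRG1 was 0.75.

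AREG, the ligand amphiregulin, rested on few reads. It had 22, 11 and 6 counts with siCIP2A#1, siCIP2A#2 and siCIP2A#3, against 2, 11 and 8 in the mock, SCR#2 and SCR#3. The mock lay at 0.146 CPM, under its floor of 0.214 CPM, and the highest library, siCIP2A#1, at 1.19 CPM. The group log2 difference of 0.73 had a wide interval (SE 0.55, 95% interval -0.47 to 1.92, edgeR adjusted p = 0.999), and it was 0.35 without the mock and 1.10 without SCR#2. EREG, the ligand epiregulin, had 0, 1 and 1 counts with the siRNAs, against 1, 0 and 2 in the controls, all of them at or under the floor throughout, so no fold is given.

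Each siRNA was then compared with the 3 controls, in a fit where its single library was assumed to vary like the controls. No member passed with any siRNA. With siCIP2A#1, 0 of 7 members were called, against 0.118% of all tested genes, and 2 had an unadjusted p under 0.05, against 9.95%. With siCIP2A#2, 0 were called, against 0.0737%, and 2 had an unadjusted p under 0.05, against 11.6%. With siCIP2A#3, 0 were called, against 0.00737%, and 0 had an unadjusted p under 0.05, against 8.22%. A library lay outside the range of the controls for 6 of 7 members with siCIP2A#1 (3 above, 3 below), for 6 with siCIP2A#2 (2 above, 4 below) and for 4 with siCIP2A#3 (1 above, 3 below). Over all tested genes these shares were 55.4% with siCIP2A#1 (26.5% above, 28.8% below), 59.3% with siCIP2A#2 (28.6% above, 30.7% below) and 54.3% with siCIP2A#3 (25.7% above, 28.6% below).

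With siCIP2A#1 the members with the smallest p were TGFA, with a log2 difference of 0.28 (SE 0.11, unadjusted p = 0.0379, edgeR adjusted p = 0.460), and AREG, with 1.36 (SE 0.56, unadjusted p = 0.0404, edgeR adjusted p = 0.471). With siCIP2A#2 they were ERBB2, with 0.45 (SE 0.14, unadjusted p = 0.0115, edgeR adjusted p = 0.333), and HBEGF, with -0.44 (SE 0.16, unadjusted p = 0.0263, edgeR adjusted p = 0.373). With siCIP2A#3 it was HBEGF, with 0.32 (SE 0.15, unadjusted p = 0.0604, edgeR adjusted p = 0.617). HBEGF thus lay below the controls with siCIP2A#2 and above them with siCIP2A#3, without passing in either. The 3 comparisons share their controls. NRG1 had log2 differences of -0.37, -0.56 and -0.28 with siCIP2A#1, siCIP2A#2 and siCIP2A#3, and EGFR of -0.14, -0.10 and 0.05. Beside the values of siCIP2A#1, the summed level of 6 fibroblast markers was 6.30 to 18.2 CPM with the CIP2A siRNAs and 6.51 to 7.78 CPM in the controls, and its highest value came from COL1A1 at 14.4 CPM with siCIP2A#1. None of the 6 was at 0 in every library, but COL3A1 and LUM had at most 3 counts in any. With siCIP2A#1, COL1A2 (0.866 CPM) and DCN (0.379 CPM) lay within the range of the controls, and PDGFRB (2.38 CPM) above it. The part of these markers and of the endothelial ones in the differences was not tested.

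**Figure D2:**
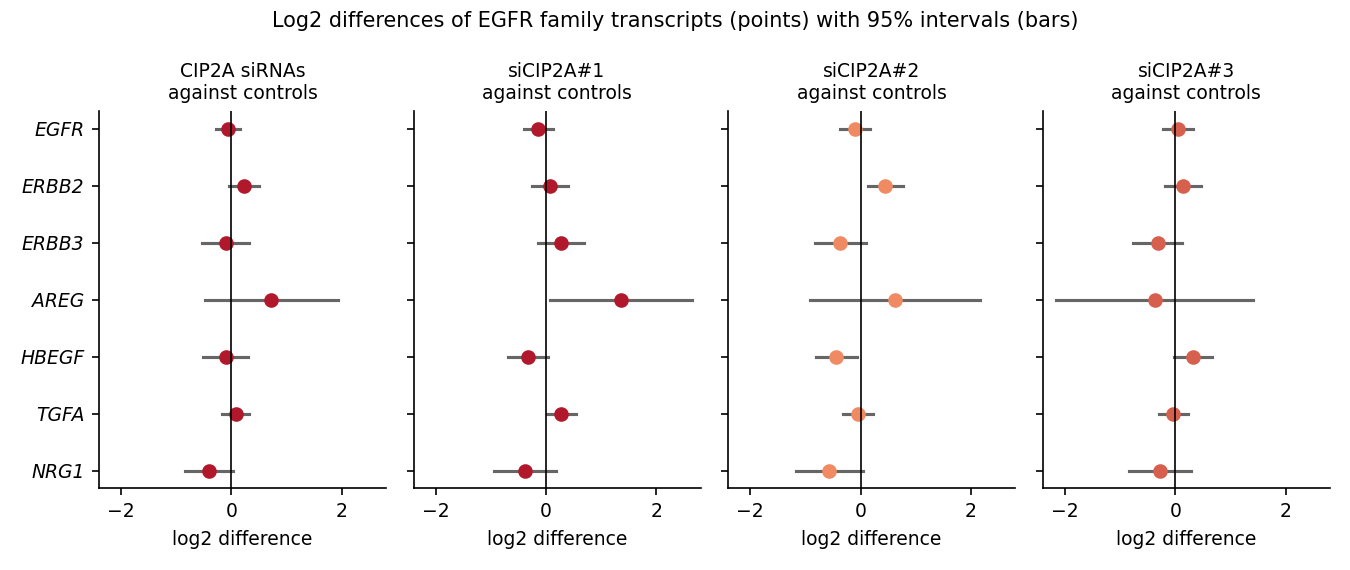
Log2 difference from the controls (points) with 95% intervals (bars) for the 7 tested members, for the 3 CIP2A siRNAs as a group and for each siRNA. HBEGF lay at -0.32 with siCIP2A#1, -0.44 with siCIP2A#2 and 0.32 with siCIP2A#3, and the intervals of AREG were the widest.

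The siRNAs were also compared with each other directly, with 1 library each. No member passed: 0 of 7 were called between siCIP2A#1 and siCIP2A#2 (0.0147% of all genes), 0 between siCIP2A#1 and siCIP2A#3 (0.509%) and 0 between siCIP2A#2 and siCIP2A#3 (0%). At an unadjusted p under 0.05 there were 1, 2 and 1 members in these comparisons, against 12.1%, 13.6% and 15.6% of all genes. HBEGF gave the smallest p of the members. It was lower with siCIP2A#2 than with siCIP2A#3 by a log2 difference of -0.76 (SE 0.19, 95% interval -1.20 to -0.32, unadjusted p = 0.0036, edgeR adjusted p = 0.174). With siCIP2A#1 against siCIP2A#3 the difference was -0.65 (SE 0.19, 95% interval -1.08 to -0.22, unadjusted p = 0.00791, edgeR adjusted p = 0.197). ERBB3 had log2 differences of 0.64 with siCIP2A#1 against siCIP2A#2 and 0.60 with siCIP2A#1 against siCIP2A#3 (SE 0.23 each, edgeR adjusted p = 0.334 and 0.314).

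The lack of calls with single siRNAs depended on the mock library. Set against each other gene by gene, SCR#2 and SCR#3 gave a chi-square of 3.1 per degree of freedom, which was 10.8 for the mock and SCR#2 and 8.58 for the mock and SCR#3. Without the mock, the spread came from SCR#2 and SCR#3 alone, with 1 residual degree of freedom, and many more genes passed. With siCIP2A#1, 1 member then passed (13.8% of all genes), with siCIP2A#2 2 (22.4%) and with siCIP2A#3 0 (9.65%). Between siCIP2A#1 and siCIP2A#2, 3 members passed (16.7%), between siCIP2A#1 and siCIP2A#3 3 (18%), and between siCIP2A#2 and siCIP2A#3 2 (22%).

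In those fits without the mock, TGFA was higher with siCIP2A#1 than in the controls, by 0.27 on the log2 scale (edgeR adjusted p = 0.0328, up to 1.00 over the other alternatives). ERBB2 was higher with siCIP2A#2 than in the controls, by 0.54 (edgeR adjusted p = 1.46e-05, up to 0.605). HBEGF was lower with siCIP2A#2 than in the controls (log2 difference -0.40, edgeR adjusted p = 0.044, up to 0.867). HBEGF was also lower with siCIP2A#2 than with siCIP2A#3 (log2 difference -0.76, edgeR adjusted p = 0.000529, up to 0.324) and with siCIP2A#1 than with siCIP2A#3 (-0.65, edgeR adjusted p = 0.00208, up to 0.620). The log2 differences between siRNAs do not use the controls, so leaving out the mock could change them only slightly, through scaling and filtering. The other calls without the mock were TGFA and ERBB3, higher with siCIP2A#1 than with either other siRNA, and ERBB2, higher with siCIP2A#2 than with either other siRNA.

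The non-targeting siRNAs were set against the mock to describe the background of transfecting an siRNA. The mock was 1 library, and its labels conflict on whether reagent was added. The spread in this fit included the differences between the 3 CIP2A siRNAs. The SE of CIP2A was 0.47 here, against 0.13 for siCIP2A#1 against controls. A lack of calls here therefore does not show that there was no background. No member passed (0 of 7, and 0% of all genes), and 0 members had an unadjusted p under 0.05, against 6.31% of all genes. AREG had the widest difference, 1.98 (SE 1.09, edgeR adjusted p = 0.812), from 11 and 8 counts with the non-targeting siRNAs against 2 in the mock. ERBB2 had a log2 difference of -0.25 (SE 0.18) and NRG1 of -0.34 (SE 0.28). The NRG1 value stands beside the -0.40 of the CIP2A siRNAs as a group, a comparison that includes the same controls.

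By make-up, EGFR and ERBB2 together held most of the summed receptor TPM in every library. ERBB2 held 44.6%, 51.9% and 44.0% of it with siCIP2A#1, siCIP2A#2 and siCIP2A#3, against 43.7%, 38.6% and 42.9% in the mock, SCR#2 and SCR#3. These shares did not overlap, but the nearest libraries, siCIP2A#3 and the mock, were within 1 percentage point. EGFR held 46.6%, 42.9% and 50.3% with the siRNAs, against 49.9%, 53.7% and 48.7% in the controls, and its groups overlapped. Counted in reads, the ratio of ERBB2 to EGFR was 0.789, 0.996 and 0.721 with the siRNAs, against 0.723, 0.592 and 0.727 in the controls.

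Among the ligands, TGFA and HBEGF held nearly all of the summed TPM. TGFA held 66.9%, 64.8% and 54.3% with siCIP2A#1, siCIP2A#2 and siCIP2A#3, against 58.3%, 58.4% and 61.6% in the mock, SCR#2 and SCR#3. HBEGF held 26.8%, 29.9% and 42.3% with the siRNAs, against 38.0%, 36.6% and 33.6% in the controls. The HBEGF share thus spanned a wider range with the siRNAs than in the controls, a difference in spread that was not tested. NRG1 held 1.88%, 1.99% and 2.03% with the siRNAs, against 3.04%, 2.36% and 2.51% in the controls, without overlap. Of 15 quantities of make-up compared, only the ERBB2 and NRG1 shares did not overlap. Each had an exact permutation p of 0.10, the smallest possible here, and a Benjamini-Hochberg adjusted p of 0.60. The summed receptor level was 61.1 ± 2.12 TPM with the siRNAs and 57.7 ± 2.20 TPM in the controls, and the summed ligand level 70.9 ± 8.50 TPM with the siRNAs and 69.1 ± 1.13 TPM in the controls. These shares are descriptions, and the shares of a library sum to a fixed total, so they are not independent of each other.

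**Figure D3:**
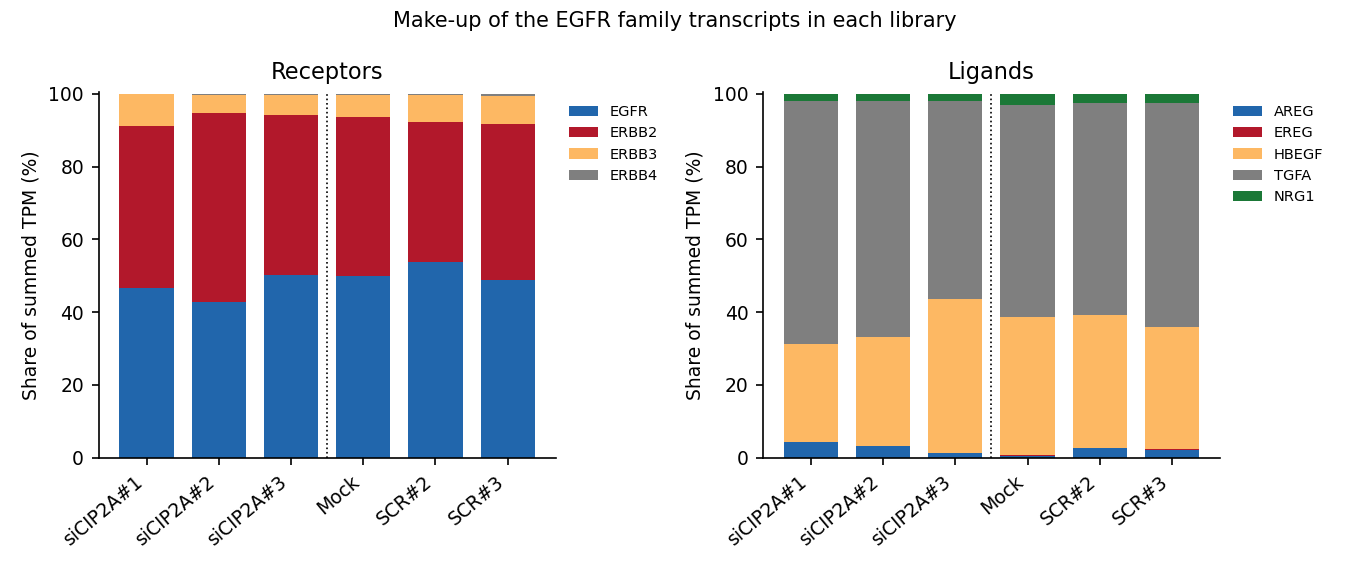
Share of the summed receptor TPM (left) and summed ligand TPM (right) that each member held in each library, with the CIP2A siRNA libraries left of the dotted line and the controls right of it. ERBB2 held 51.9% of the receptor sum with siCIP2A#2, and HBEGF held 42.3% of the ligand sum with siCIP2A#3.

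The rest of the pathway was followed in 7 lists, and none of their tested members passed in the group comparison. The lists were chosen with earlier results of these data known, so their shares beside all genes are descriptions. Of the other 6 ligands of the family, 3 were tested. The neuregulin NRG2 had 20.4, 21.4 and 21.8 CPM with the CIP2A siRNAs, against 20.8, 22.3 and 18.7 CPM in the controls. Per length it averaged 21.7 TPM with the siRNAs and 20.8 TPM in the controls, well above NRG1. EGF, the ligand that gave the receptor its name, had 1.79, 2.26 and 0.530 CPM with the siRNAs, against 0.801, 1.64 and 1.49 CPM in the controls. BTC, the ligand betacellulin, had 0.974, 1.61 and 0.589 CPM with the siRNAs, against 1.09, 0.994 and 1.49 CPM in the controls. Both were lowest, of the 3 siRNAs, with siCIP2A#3.

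Among the genes for ligand release, 6 of 8 were tested, with a median log2 difference of 0.06. The metalloprotease gene ADAM9 had 162, 290 and 283 CPM with siCIP2A#1, siCIP2A#2 and siCIP2A#3, against 265, 330 and 299 CPM in the mock, SCR#2 and SCR#3. Only siCIP2A#1 stood clearly below the controls, with a log2 difference of -0.88. ADAM17, the main protease for TGFA and AREG, had a group log2 difference of 0.07 (SE 0.09), and FRMD8, whose protein stabilises ADAM17 at the cell surface, of 0.16 (SE 0.15).

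Of the adaptors and signal relay genes 24 of 25 were tested, of the negative regulators 16 of 18, and of the genes for receptor endocytosis and sorting 15 of 15. Their median log2 differences were 0.0024, 0.03 and -0.01, close to that of all tested genes, and 12, 9 and 5 of the tested members lay above 0. In the first list the transcription factor gene STAT3 had the smallest p, with a log2 difference of 0.23 (SE 0.11, unadjusted p = 0.0598), ahead of the kinase gene ARAF (0.20, SE 0.14) and the phosphatase gene PTPN11 (-0.11, SE 0.08). Among negative regulators these were LRIG2 (0.32, SE 0.18), SH3KBP1 (0.12, SE 0.08) and ERRFI1, an inhibitor that binds the EGFR kinase (-0.18, SE 0.13). RAB5A, a GTPase of early endosomes, had -0.27 (SE 0.12, unadjusted p = 0.042, edgeR adjusted p = 0.999), followed by STAM2 (-0.13, SE 0.09) and EPS15L1 (-0.13, SE 0.12).

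Of 21 other receptor tyrosine kinases, 17 were tested, 13 of them (76.5%) with a group log2 difference above 0, against 49.7% of all tested genes, and with a median of 0.17. By siRNA, 13 lay above the controls with siCIP2A#1 (median 0.12), 12 with siCIP2A#2 (median 0.22) and 9 with siCIP2A#3 (median 0.02). In the group comparison 2 of the 17 (11.8%) had an unadjusted p under 0.05, against 2.72% of all genes. The collagen receptor DDR1 had 195, 235 and 151 CPM with the siRNAs, against 169, 144 and 154 CPM in the controls, and a log2 difference of 0.31 (SE 0.14, unadjusted p = 0.041, edgeR adjusted p = 0.999), which was 0.15 without siCIP2A#2. The insulin-like growth factor receptor IGF1R had 68.6, 60.8 and 73.1 CPM with the siRNAs, against 56.6, 59.6 and 57.1 CPM in the controls. Its groups did not overlap, whereas 3.26% of all tested genes were higher without overlap. Its log2 difference was 0.22 (SE 0.10, unadjusted p = 0.045, edgeR adjusted p = 0.999). EPHB4, an ephrin receptor, had 0.19 (SE 0.10). None of the 3 passed.

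The list of 19 transcripts known to be induced by EGFR signalling, all tested, lay mostly above the controls with siCIP2A#3 and mostly below them with siCIP2A#2. In the group comparison 0 passed, 17 (89.5%) lay above 0 and 2 below, and the median log2 difference was 0.07. That split rested on single libraries. Without siCIP2A#3 it was 8 above and 11 below, and without the mock 11 above and 8 below. By siRNA, 12 lay above and 7 below the controls with siCIP2A#1 (median 0.05), 5 and 14 with siCIP2A#2 (median -0.15), and 18 and 1 with siCIP2A#3 (median 0.23). No call was made in these main fits, but as for the members this depended on the mock. Without it, some of the list passed with each siRNA, where many more of all genes passed as well. DESeq2, and edgeR with no filter, also called some with siCIP2A#3. At an unadjusted p under 0.05 there were 4, 8 and 9 of the 19, or 21.1%, 42.1% and 47.4%, against the shares of all genes given above.

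The shares of this list are descriptions, since it was chosen with earlier results of these data known and 1 library stands for each siRNA. Between siCIP2A#2 and siCIP2A#3, 18 of the 19 induced transcripts were lower with siCIP2A#2 and 1 higher. Their median log2 difference was -0.47, against 0.01 over all tested genes. Calls in this comparison also depended on the mock, the tool and the filter, and those given here are of the main fit. None passed, and 12 of 19 (63.2%) had an unadjusted p under 0.05, against 15.6% of all genes. EGR1, an immediate early transcription factor gene, had 17.0, 11.3 and 31.0 CPM with siCIP2A#1, siCIP2A#2 and siCIP2A#3, against 15.3, 15.4 and 14.3 CPM in the mock, SCR#2 and SCR#3. The library with siCIP2A#3 held about double the level of each control. Its log2 difference from the controls was 1.05 with siCIP2A#3 (SE 0.14, edgeR adjusted p = 0.0722), and it was -1.46 with siCIP2A#2 against siCIP2A#3 (SE 0.18, edgeR adjusted p = 0.0657), so neither passed. LIF, a cytokine gene, had 28.0, 24.6 and 40.8 CPM with the siRNAs, against 21.4, 24.2 and 28.7 CPM in the controls, and siCIP2A#3 was again the highest. FOS, another immediate early gene, had 9.47, 4.13 and 7.42 CPM with the siRNAs, against 6.11, 5.26 and 4.48 CPM in the controls.

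Between siCIP2A#1 and siCIP2A#3, 16 of the 19 induced transcripts were lower with siCIP2A#1 and 3 higher, with a median log2 difference of -0.205. Of the 19, 2 were called, both lower with siCIP2A#1, where 0.509% of all genes were called in either direction. FOSL1, a subunit of the AP-1 transcription factor, had 311 CPM with siCIP2A#1 and 651 CPM with siCIP2A#3, with 443 CPM with siCIP2A#2 and 515, 428 and 398 CPM in the mock, SCR#2 and SCR#3. The log2 difference was -1.07 (SE 0.17, edgeR adjusted p = 0.043). PHLDA1, a pleckstrin homology protein gene, had 392 CPM with siCIP2A#1 and 646 CPM with siCIP2A#3, with 439 CPM with siCIP2A#2 and 460, 514 and 497 CPM in the controls. The log2 difference was -0.72 (SE 0.12, edgeR adjusted p = 0.0461), and it did not pass with RLE or upper quartile factors (edgeR adjusted p = 0.0507 and 0.055). HBEGF, itself an EGFR ligand, had its highest level with siCIP2A#3 too, as the plot of induced transcripts shows. Whether the same cause lies behind these differences was not tested, and 1 library stands for each siRNA.

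**Figure D4:**
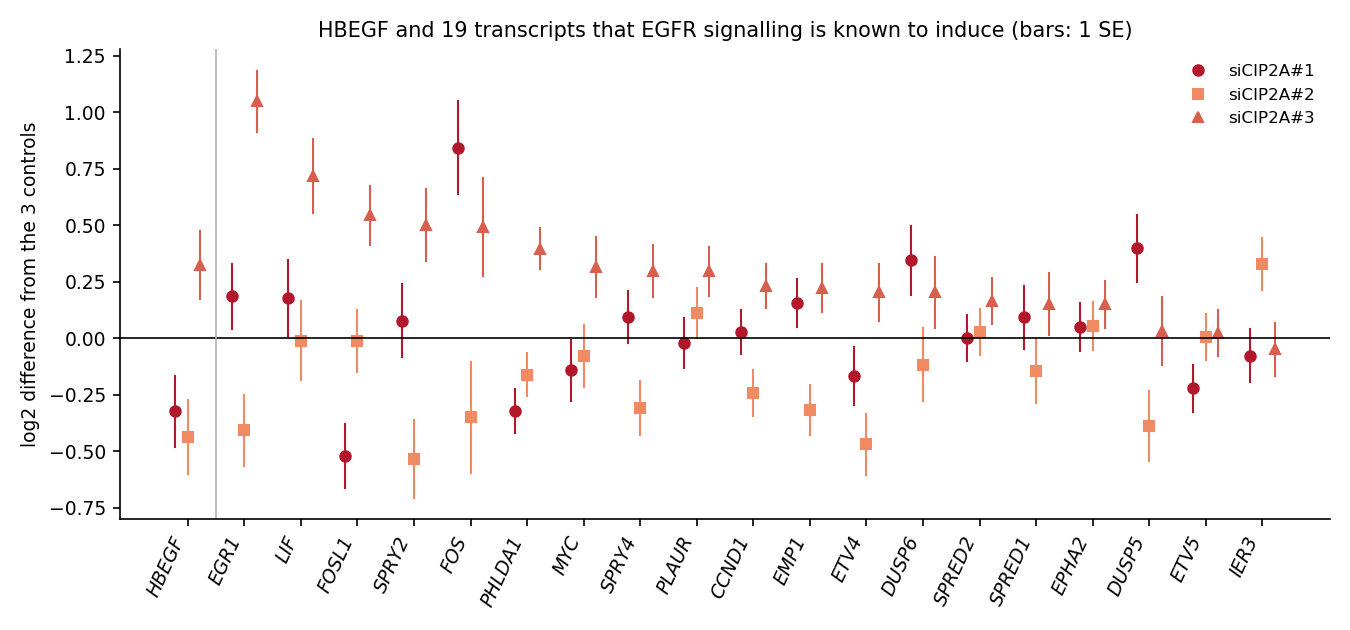
Log2 difference of HBEGF (left of the line) and of the 19 induced transcripts from the 3 controls, for each CIP2A siRNA, with bars of 1 SE. With siCIP2A#3, 18 of the 19 lay above 0, led by EGR1 at 1.05, and with siCIP2A#2, 14 lay below 0.

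Among themselves the members did not move as 1 block over the 6 libraries. Of 21 pairs of tested members, EGFR with HBEGF had a Pearson r of 0.85 for log2 CPM and ERBB3 with TGFA 0.80, while EGFR with AREG had -0.81 and AREG with NRG1 -0.76. These are descriptions over 6 libraries. By the same measure, searched among 10126 or 10127 genes at or above a mean log2 CPM of 3, EGFR was most like ELOVL1 (r 0.996), ERBB2 most like CWC25 (0.993), ERBB3 most like LVRN (0.991) and AREG most like TRPM7 (0.984). HBEGF was most like NTAN1 (0.998), TGFA most like MLLT3 (0.985) and NRG1 most like PLD2 (0.987). With so few libraries and so many genes, no p is given.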

How the data were processed

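RNA was measured in 6 HCC38 libraries. The authors deposited raw read counts per gene, whole numbers that were not normalized, in 1 table whose columns are the libraries, per the file headers. The submitters' processing notes name STAR 2.5.4b, Subread 1.5.1, bcl2fastq 2.17 and the build hg38. How reads were assigned (annotation, strand, multiple mapping) is not given in the sources used here. Library preparation was stranded, per the labels' protocols.

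Of the symbols, 51 had been changed by a spreadsheet, and the Entrez identifier restored 50 of them. KIAA1524 was renamed CIP2A through RefSeq synonyms. The filterByExpr filter (minimum count 10) kept 13562 genes, and TMM scaled the libraries (factors 0.982 to 1.02). Tests were those of edgeR 4.0.16 in R 4.3.3 (robust glmQLFit, glmQLFTest), with Benjamini-Hochberg adjustment over all tested genes and a threshold of 0.05. The group comparison had 4 residual degrees of freedom. Single siRNAs and pairs of siRNAs came from a fit with 4 levels (2 residual degrees of freedom), and non-targeting siRNAs against mock from 1 with 3 levels (3 residual degrees of freedom). Log2 CPM had a prior count of 2. TPM used exon lengths of GENCODE 29, found for 93.8% of genes. Pairs of libraries within a group gave a chi-square of 3.1 to 17.1 per degree of freedom, so none was deposited more than once. Floors cover counting error only. The fits were tested on simulated data in which each gene had the same spread in all libraries. That test therefore does not cover a library that varies more than the others.

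Alternatives were RLE and upper quartile factors, DESeq2 1.42.0, limma-voom (limma 3.58.1), 2 other filters, a replicate block, a level of its own for the mock, other transcript lengths, and each library left out. Leaving out SCR#2 or SCR#3 in the comparison with the mock, and all alternatives for FOSL1 and PHLDA1, were added after seeing the data. All members were named. From each list the text names up to 3 tested genes with the smallest p in the group comparison and every gene called in any comparison; ranking by likeness used the highest Pearson r. The members and lists were chosen with earlier results of these data known.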

Additional observations from a re-analysis of the deposited data

How the results depend on the processing

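Of 896 alternative values for 83 log2 differences, 867 kept their direction and side of the threshold, 2 lost a call, 13 gained one and 14 changed sign. All changes of sign were of uncalled differences. The values include log2 differences between siRNAs, which do not use the controls, so leaving out a control could hardly move them. Leaving out 1 library at a time, the group log2 difference ranged from -0.34 (without siCIP2A#1) to 0.013 (without siCIP2A#2) for ERBB3, from -0.38 (without siCIP2A#3) to 0.033 (without siCIP2A#2) for HBEGF, and from -0.040 (without siCIP2A#1) to 0.13 (without siCIP2A#2) for TGFA. It ranged from -0.59 to 0.10 for BTC, from -0.18 to 0.59 for EGF, from -0.026 to 0.10 for NRG2, from -0.21 to 0.0072 for EPS15L1 and from -0.076 (without siCIP2A#3) to 0.68 for EGR1. Without a change of sign, it ranged from 0.35 to 1.10 for AREG, from 0.11 to 0.32 for ERBB2, from 0.15 to 0.46 for DDR1, from 0.017 to 0.29 for FRMD8, from 0.13 to 0.45 for LRIG2, from 0.12 to 0.32 for STAT3, from -0.27 to -0.035 for ERRFI1 and from -0.35 to -0.16 for RAB5A. EGF was -0.046 with the mock as a separate level. Leaving out 1 control, ERBB2 with siCIP2A#1 ranged from -0.0037 to 0.17, AREG with siCIP2A#3 from -0.74 to 0.011, and TGFA with non-targeting siRNA against mock from -0.0086 to 0.063. Leaving out 1 library gave 0 to 1 called members with siCIP2A#1, 0 to 2 with siCIP2A#2, 0 to 3 between siCIP2A#1 and siCIP2A#2, 0 to 3 between siCIP2A#1 and siCIP2A#3 and 0 to 2 between siCIP2A#2 and siCIP2A#3. The upper values all came without the mock. Under each of the other alternatives run, 0 members were called in every comparison. Deviations of libraries with the same replicate number had r of -0.12, -0.13 and 0.008, and those with different numbers had r of -0.073 to 0.163. Each library also had its own siRNA or was the mock, so these values cannot show whether the numbers pair the libraries. With the replicate block, 0 members were called and 1 gene of all tested, CIP2A (log2 difference -2.03, edgeR adjusted p = 0.0345, range over its alternatives 1.2e-05 to 1.00). In the group comparison DESeq2 and edgeR with no filter each called 2 genes higher and 1 lower, none of them a member. AREG had no value when 3 libraries had to reach 1 CPM or, in the group comparison and that with the mock, without siCIP2A#1, since it then failed the filter. In the controls, median transcript lengths gave ERBB2 45.6, EGFR 34.9 and NRG1 3.52 TPM. At this depth AREG, ERBB4 and EREG rest on few reads, and the SE of AREG, 0.55, limits what could be detected.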
